A study of Mus musculus with 2 samples.

Results

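The collagen genes expressed by ventricular non-myocytes of the mouse heart were described across cell classes: the chains of collagen I (Col1a1, Col1a2), collagen III (Col3a1), collagen V (Col5a1, Col5a2), collagen VI (Col6a1, Col6a2, Col6a3) and collagen VIII (Col8a1), with Pcolce, which codes for a protein that assists the trimming of procollagen. The genes were taken by symbol, and all 10 were found among the 27998 genes of the tables. Single-cell RNA sequencing had been done on 2 wild-type C57BL/6 mice aged 10 to 12 weeks, with 1 library per mouse and no treated group. Hearts were perfused and digested, atria and myocytes were removed, red cells were lysed, and cells that excluded the dye 7-AAD, which marks dead cells, were captured with the version 2 droplet kit for 3' ends. The comparisons are therefore between cell classes of the same animals.

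Cells were placed in classes by UMIs, tags that each mark 1 captured RNA molecule. Fibroblasts had at least 5 UMIs of Dcn, the small proteoglycan decorin. Mural cells, the contractile cells that wrap small vessels, had at least 4 UMIs of Rgs5, Kcnj8 and Vtn together. Endothelial cells had at least 2 UMIs of Pecam1, Cdh5 and Egfl7 together, and macrophages at least 15 of the complement genes C1qa, C1qb and C1qc. Of 12295 cells kept, 1860 and 1303 were fibroblasts in mouse 1 and mouse 2, 63 and 42 were mural cells, 929 and 1269 were endothelial cells, and 2997 and 2361 were macrophages. Another 188 and 130 cells met more than 1 rule and 571 and 582 met none, and both kinds were left out of the classes. This loss fell heavily on mural cells: 116 and 85 cells met the mural rule, and 44 and 36 of them also met the endothelial rule. Among endothelial cells, 40 in each mouse had at least 2 UMIs of Npr3 and Cytl1 together and were taken as endocardial, the lining of the heart chambers. With cells that met several rules counted in, they were 65 and 77. Among fibroblasts, 1024 and 546 had at least 2 UMIs of Pi16 alone.

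Collagens are built from 3 chains that wind into a triple helix in the endoplasmic reticulum and are exported as procollagen. Collagens I and III form the load-bearing fibrils of the cardiac interstitium, collagen V nucleates and limits the width of those fibrils, collagen VI makes beaded filaments around cells and basement membranes, and collagen VIII makes short-chain networks near vessels. Pcolce binds the carboxyl propeptide of fibrillar procollagens and speeds its removal by the protease Bmp1. Fibroblasts are known as the main makers of fibrillar collagen in the healthy heart.

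Levels are given as CPM: cells of a class were summed within a mouse, and each gene's UMI count was divided by the summed total and scaled to 1000000. Each molecule is counted once at its 3' end, so values were not divided by gene length, although capture may differ between genes. Errors and counting intervals leave out this difference. The tables held 21355383 UMIs over 7732 barcodes in mouse 1 and 15174548 UMIs over 6367 barcodes in mouse 2, with 65 barcode sequences present in both. The median UMIs per cell were 2752 and 2471 in fibroblasts, 1295 and 1293.5 in mural cells, 1463 and 1410.0 in endothelial cells and 2845 and 2616 in macrophages. In total, fibroblasts held 8583420 UMIs, mural cells 146057, endothelial cells 3604061 and macrophages 15820346, so values of mural cells were the least precise. Marker genes that the rules did not use followed the class names: 5 fibroblast markers summed to 33706 and 42228 CPM in fibroblasts, and 6 pericyte markers to 8313 and 7719 CPM in mural cells. Mural cells also held 953 and 1110 CPM of 5 endothelial markers, of which only 1 reached 50 CPM in each mouse. They held 1009 and 770.1 CPM of 5 smooth muscle markers, of which 4 reached 50 CPM in each mouse and Cnn1 was at 0. The fibroblast markers summed to 587 and 663 CPM in mural cells, against 361 and 337 CPM in endothelial cells and 363 and 352 CPM in macrophages, with all 5 read in each class. The part of these markers' cells in the mural values was not tested. The 6 cardiomyocyte markers were read in every main class, at 325 and 138 CPM in fibroblasts, 532 and 89.5 CPM in mural cells, 742 and 258 CPM in endothelial cells and 617 and 239.6 CPM in macrophages, each time higher in mouse 1.

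The 9 chains together stood at 3591 and 4510 CPM in fibroblasts, 765 and 573 CPM in mural cells, 61.8 and 48.1 CPM in endothelial cells and 31.8 and 33.0 CPM in macrophages. Fibroblasts held 94.7% of all chain UMIs of kept cells in mouse 1 and 95.3% in mouse 2, though they were 28.1% and 22.9% of those cells. All 10 genes were called higher in fibroblasts than in endothelial cells, where 16.4% of the 11683 genes tested were called higher. Genes were called where edgeR's quasi-likelihood test gave an adjusted p (Benjamini-Hochberg, over the whole table) under 0.05 and the log2 fold change was 1 or more. All 10 were also called higher in fibroblasts than in macrophages (20.0% of all genes called higher) and than in mural cells (7.17%). The median log2 fold change of the 10 genes was 6.17 over endothelial cells, 6.41 over macrophages and 3.12 over mural cells, and that of all genes tested was 0.03, 0.02 and 0.40. All 10 stayed called in these 3 comparisons under each alternative test, scaling, filter and cell rule run.

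**Figure D1:**
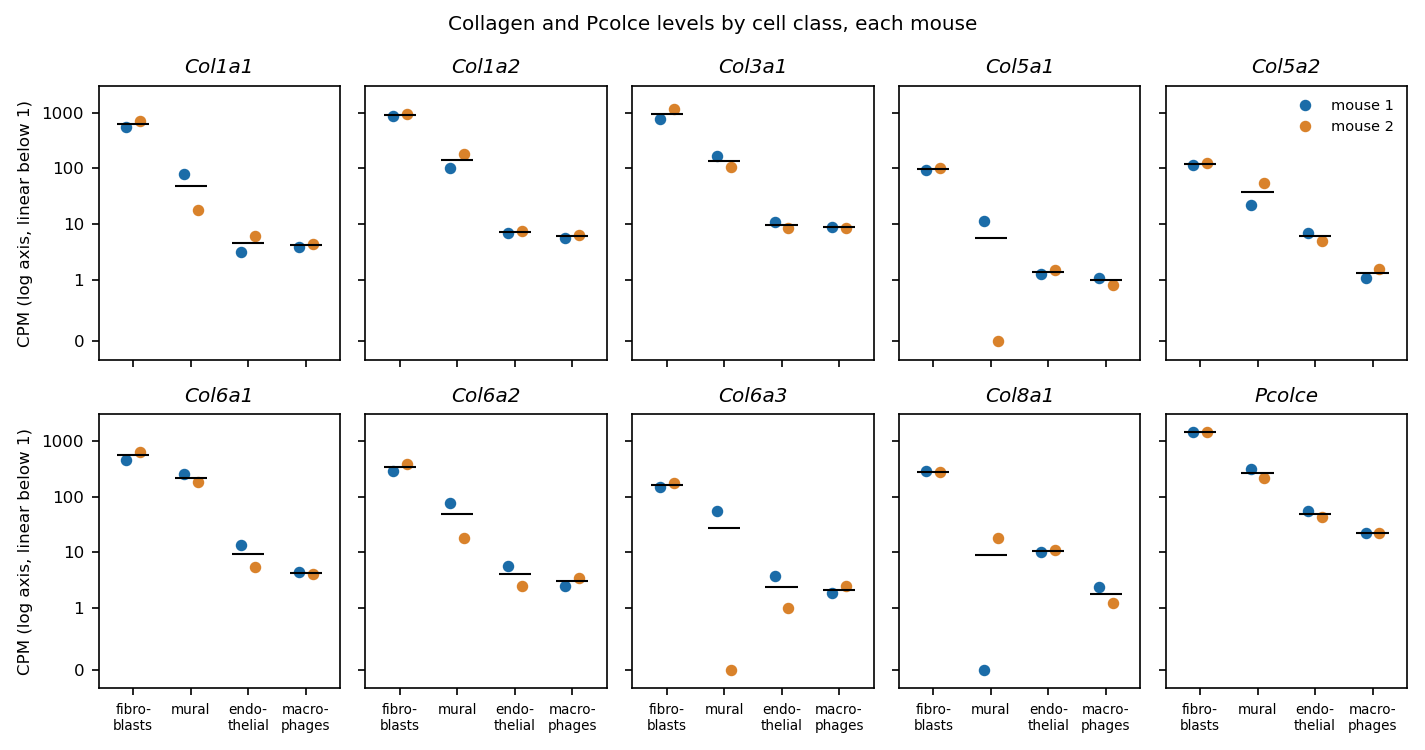
Level of each gene in CPM (log axis, linear below 1) in fibroblasts, mural cells, endothelial cells and macrophages; dots are the 2 mice and lines their mean. In each of the 10 panels both fibroblast dots lie above both dots of every other class, and the mural mean comes next for each gene except Col8a1, which was read 0 times in mural cells of mouse 1.

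The fibril-forming chains of collagens I and III had the highest levels among the chains in fibroblasts. Col1a1, the alpha 1 chain of collagen I, was at 556 and 712 CPM in fibroblasts, 77.6 and 17.9 CPM in mural cells, 3.15 and 5.95 CPM in endothelial cells and 3.90 and 4.41 CPM in macrophages. Col1a2, its alpha 2 chain, was at 878 and 956 CPM in fibroblasts, 99.8 and 179 CPM in mural cells, 6.94 and 7.43 CPM in endothelial cells and 5.63 and 6.38 CPM in macrophages. Col3a1, whose product is a homotrimer, was at 767 and 1140.0 CPM in fibroblasts, 166 and 107 CPM in mural cells, 10.7 and 8.42 CPM in endothelial cells and 8.98 and 8.51 CPM in macrophages. Fibroblasts did not overlap any other class for these 3 genes, mural cells lay between. Endothelial cells and macrophages overlapped for Col1a1 and Col3a1, and for Col1a2 both endothelial values were slightly higher. The log2 fold changes in fibroblasts over endothelial cells were 7.13 ± 0.25 for Col1a1 (SE, edgeR adjusted p = 1.4e-19), 7.05 ± 0.21 for Col1a2 (9.7e-21) and 6.70 ± 0.23 for Col3a1 (1e-19). Over mural cells they were 3.97 ± 0.34 for Col1a1, 3.27 ± 0.25 for Col1a2 and 3.16 ± 0.27 for Col3a1. Collagen I is assembled mostly from a pair of alpha 1 chains and a single alpha 2 chain, yet fewer Col1a1 than Col1a2 UMIs were read in fibroblasts: their ratio was 0.633 in mouse 1 (95% exact counting interval 0.604 to 0.663) and 0.745 in mouse 2 (0.706 to 0.786).

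On mm10, Col1a1 lies on chromosome 11 (94936224 to 94953042, plus strand) and Col1a2 on chromosome 6 (4504814 to 4541544, plus strand) in the GENCODE annotation. Col3a1 (45311538 to 45349706, plus strand) and Col5a2 (45374321 to 45503282, minus strand) are neighbours on chromosome 1. Col3a1 shares exon bases on its own strand with Gm47302 there, so reads in the shared bases may have been split. RefSeq promoter windows on GRCm38.p6, from 250 bases before to 50 bases after a start, were given for 8 of the 10 genes, and 3 are printed because these genes carry the main contrasts below: Col1a2 and Col3a1 the fibroblast level, Col8a1 the endothelial and matrix-rule differences. Capitals mark matches, on either strand, to CCAAT, to the GC box GGGCGG or to the TATA sequence TATAAA. The windows are Col1a2 at chr6:4505368-4505667 on the plus strand, Col3a1 at chr1:45311288-45311587 on the plus strand and Col8a1 at chr16:57754688-57754987 on the minus strand.
Col1a2: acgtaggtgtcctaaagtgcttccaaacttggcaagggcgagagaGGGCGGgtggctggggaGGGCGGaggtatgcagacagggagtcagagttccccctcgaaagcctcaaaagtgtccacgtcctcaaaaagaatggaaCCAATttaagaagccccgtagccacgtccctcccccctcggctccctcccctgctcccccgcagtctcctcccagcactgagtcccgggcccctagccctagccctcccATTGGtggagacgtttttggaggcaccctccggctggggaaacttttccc
Col3a1: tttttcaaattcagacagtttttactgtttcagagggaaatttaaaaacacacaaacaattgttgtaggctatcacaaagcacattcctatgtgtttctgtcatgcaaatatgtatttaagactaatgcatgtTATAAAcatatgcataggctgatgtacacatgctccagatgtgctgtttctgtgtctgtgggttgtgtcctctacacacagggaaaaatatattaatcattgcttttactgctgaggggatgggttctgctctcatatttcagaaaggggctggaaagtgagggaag
Col8a1: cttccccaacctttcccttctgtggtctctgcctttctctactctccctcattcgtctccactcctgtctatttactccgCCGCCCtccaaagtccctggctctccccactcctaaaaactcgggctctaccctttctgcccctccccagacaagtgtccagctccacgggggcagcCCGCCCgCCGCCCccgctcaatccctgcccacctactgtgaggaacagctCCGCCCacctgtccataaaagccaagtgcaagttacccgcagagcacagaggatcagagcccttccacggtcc

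The Col1a2 window held CCAAT matches at -109 and, on the other strand, at 1, with 2 GC boxes, the Col3a1 window held a TATAAA match at -117, and the Col8a1 window held 4 GC boxes on the other strand. Among the 8 genes with windows, CCAAT was found in 1 gene, the GC box in 5 and TATAAA in 1. Of all 32851 mouse windows, 37.4% held CCAAT, 35.7% the GC box and 13.6% TATAAA. None of the searched motifs was found in all 3 printed windows.

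Collagen V was less abundant. Col5a1, whose product occurs in every common form of collagen V, was at 92.6 and 102 CPM in fibroblasts, 11.1 and 0 CPM in mural cells, 1.26 and 1.49 CPM in endothelial cells and 1.08 and 0.912 CPM in macrophages. Col5a2, the partner chain, was at 117 and 124 CPM in fibroblasts, 22.2 and 53.7 CPM in mural cells, 6.94 and 4.95 CPM in endothelial cells and 1.08 and 1.52 CPM in macrophages. The fibroblast log2 fold change of Col5a2 was thus 6.17 ± 0.24 over macrophages (edgeR adjusted p = 8.6e-19) and 4.42 ± 0.25 over endothelial cells (9.3e-15), the smallest of the 10 genes over endothelial cells. Col5a1 rested on a single UMI in mural cells, and its count ratio of fibroblasts to mural cells was 14.1 (95% exact counting interval 2.52 to 556). Col5a1 lies on chromosome 2 (27886425 to 28039514, plus strand) and overlaps exons of 2810430I11Rik and Gm13372 on the other strand; the strand setting of the authors' counting is not given in the sources used here.

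Among the chains of collagen VI, Col6a1 was the one whose mural level came nearest to that of fibroblasts. Col6a1, which pairs with the other chains in each collagen VI monomer, was at 461 and 638 CPM in fibroblasts, 255 and 179 CPM in mural cells, 13.2 and 5.45 CPM in endothelial cells and 4.44 and 4.10 CPM in macrophages. Fibroblasts were higher than mural cells by a log2 fold change of 1.74 ± 0.28 (edgeR adjusted p = 2.8e-05), and in mouse 1 alone the CPM differed by 0.85 on the log2 scale. Col6a2 was at 289 and 391 CPM in fibroblasts, 77.6 and 17.9 CPM in mural cells, 5.68 and 2.48 CPM in endothelial cells and 2.49 and 3.50 CPM in macrophages. Col6a3, the long chain whose carboxyl end is cleaved off as endotrophin, was at 147 and 173 CPM in fibroblasts, 55.4 and 0 CPM in mural cells, 3.78 and 0.991 CPM in endothelial cells and 1.84 and 2.43 CPM in macrophages. In fibroblasts Col6a1 exceeded Col6a2 by a UMI ratio of 1.59 in mouse 1 (95% exact counting interval 1.49 to 1.70) and 1.63 in mouse 2 (1.52 to 1.75), close between mice, and exceeded Col6a3 by 3.13 and 3.69. Col6a1 (76708792 to 76726168) and Col6a2 (76595762 to 76623630) are neighbours on the minus strand of chromosome 10, and Col6a3 lies on the minus strand of chromosome 1 (90765923 to 90843971).

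Col8a1, a chain of the network-forming collagen VIII, was at 285 and 273 CPM in fibroblasts, 0 and 17.9 CPM in mural cells, 10.1 and 10.9 CPM in endothelial cells and 2.38 and 1.22 CPM in macrophages. It was the chain with the closest fibroblast values in the 2 mice. Mural cells held a single UMI, and the count ratio of fibroblasts to mural cells was 40.9 (95% exact counting interval 7.34 to 1616). Col8a1 lies on the minus strand of chromosome 16 (57624258 to 57754737).

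Pcolce was the most abundant of the 10 genes in fibroblasts, at 1437 and 1418 CPM in fibroblasts, 310.4 and 215 CPM in mural cells, 54.9 and 42.1 CPM in endothelial cells and 21.8 and 21.7 CPM in macrophages. Its fibroblast log2 fold change was 2.88 ± 0.21 over mural cells (edgeR adjusted p = 1.8e-11), 4.95 ± 0.17 over endothelial cells (1e-19) and 5.68 ± 0.17 over macrophages (2.5e-21). Pcolce lies on the minus strand of chromosome 5 (137605103 to 137613784) and shares exon bases with Fbxo24 on that strand and Gm36266 on the other, so reads there may have been split.

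**Figure D2:**
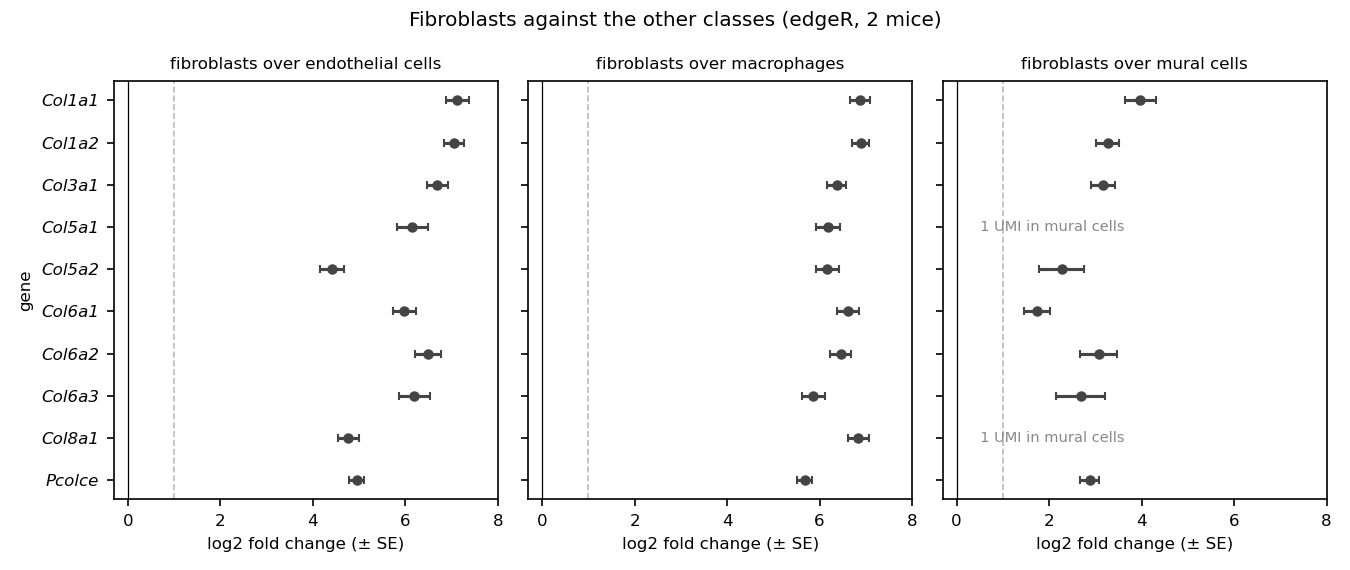
Fitted log2 fold change (x axis) with its SE for each gene (y axis) in fibroblasts over endothelial cells, over macrophages and over mural cells; the dashed line is the call threshold of 1. Points over endothelial cells run between 4.42 and 7.13, and Col6a1 has the smallest value over mural cells, 1.74; Col5a1 and Col8a1 are not drawn there because mural cells held 1 UMI of each.

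Mural cells were higher than endothelial cells in 7 of the 10 genes, where 4.55% of all genes were called higher, and higher than macrophages in 8 (9.12% of all genes). The sum of the 5 fibroblast markers given above was higher in mural cells as well. Of these markers, 2 reached 50 CPM in each mouse in mural cells, against 1 in endothelial cells and 1 in macrophages. Col6a1 had the largest difference among the 10 genes in both comparisons, with log2 fold changes of 4.24 ± 0.44 over endothelial cells (edgeR adjusted p = 3e-08) and 4.87 ± 0.43 over macrophages (4.3e-10). Col3a1 was higher by 3.53 ± 0.46 and Col1a2 by 3.78 ± 0.44 over endothelial cells, and Pcolce by 2.07 ± 0.28. Col5a2 had a log2 fold change of 2.15 ± 0.80 over endothelial cells (adjusted p = 0.083), and Col5a1 and Col8a1 had 1 UMI each in mural cells. With cells that met several rules counted in each class, edgeR no longer called Col1a1 (log2 fold change 1.42, adjusted p = 0.10) or Col6a3 (log2 fold change 1.46, adjusted p = 0.28) over endothelial cells. Without the replicate block Col6a3 also missed the threshold in edgeR's quasi-likelihood test (adjusted p = 0.063). Scaling to total UMIs alone instead of by trimmed means moved the all-gene median by 0.40 over endothelial cells and by 0.82 over macrophages, and made higher genes 60.9% instead of 38.5%, and 73.6% instead of 40.4%, of all calls. In fibroblasts over mural cells that scaling moved the median by -0.46 and made them 38.6% instead of 64.0%, and in fibroblasts over macrophages it moved the median by 0.36 and made them 65.9% instead of 52.9%.

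Endothelial cells held very few collagen molecules, and 2 of the 10 genes were called higher in them than in macrophages, where 16.8% of all genes were called higher. Col8a1 differed by a log2 fold change of 2.07 ± 0.37 (edgeR adjusted p = 2.3e-05) and Col5a2 by 1.75 ± 0.45 (0.0017), and both endothelial values lay above both macrophage values. Without the endocardial cells described below, the other endothelial cells had a Col5a2 log2 fold change of 1.20 ± 0.54 (adjusted p = 0.054) and the call was lost. Pcolce differed by 0.73 ± 0.17 (0.00088), which is under the fold threshold and passed it only at 1.15 with scaling to total UMIs and at 1.08 with cells counted in each class they met. The other 7 chains had log2 fold changes between -0.33 and 0.63 with adjusted p from 0.16 to 0.99. Higher genes were 66.9% of all calls with scaling to total UMIs, against 50.4% with trimmed means.

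Free RNA in the droplets gives UMIs in cells that do not make a transcript, and macrophages are not known as makers of fibrillar collagen. Per 100 cells, unscaled, 10.5 and 7.64 chain UMIs were read in endothelial cells and 9.81 and 9.19 in macrophages. Col8a1 alone gave 1.72 and 1.73 UMIs per 100 cells in endothelial cells against 0.734 and 0.339 in macrophages, and Col5a2 gave 1.18 and 0.788 against 0.334 and 0.424. With each cell thinned to 1000 UMIs, 0.342% and 0.554% of endothelial cells and 0.368% and 0.519% of macrophages held a Col1a1 UMI, so endothelial Col1a1 was at the macrophage level. Fibroblast shares at that depth were 39.7% and 46.9%, and before thinning 68.4% and 77.3% of fibroblasts, 0.538% and 0.709% of endothelial cells and 1.17% and 1.23% of macrophages held one. Thinning left out 13 and 40 fibroblasts, 51 and 186 endothelial cells and 9 and 48 macrophages with fewer UMIs. Of the 63 mural cells of mouse 1 it kept 55, and a part of the 42 in mouse 2 was left out too. Any of the 9 chains was read in 93.3% and 97.7% of thinned fibroblasts, 47.3% and 41.4% of mural cells, 5.92% and 4.34% of endothelial cells and 2.84% and 3.07% of macrophages.

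The mix of chains also differed between classes. Col6a1 made up 33.3% of the chain UMIs in mural cells of mouse 1 (95% exact interval 22.4 to 45.7, of 69 UMIs) and 31.2% in mouse 2 (16.1 to 50.0, of 32 UMIs), against 12.8% and 14.2% in fibroblasts. Col8a1 made up 16.3% (9.63 to 25.2, of 98 UMIs) and 22.7% (14.8 to 32.3, of 97 UMIs) in endothelial cells, against 7.93% and 6.05% in fibroblasts. Col5a2 made up 11.2% (5.74 to 19.2) and 10.3% (5.06 to 18.1) in endothelial cells, against 3.25% and 2.75% in fibroblasts. Each of these intervals excluded the fibroblast value of the same mouse. Without the endocardial cells, Col5a2 made up 6.17% (2.03 to 13.8) and 9.68% (4.52 to 17.6) in the other endothelial cells. There the mouse 1 interval included the fibroblast value, and the mouse 2 interval did not. With cells that met several rules counted in each, the mean over mice was 24.7% for Col6a1 in mural cells, and 12.5% for Col8a1 and 5.64% for Col5a2 in endothelial cells.

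Macrophages came closer to the fibroblast mix, with Col1a1 at 12.2% (8.73 to 16.5, of 294 UMIs) and 13.4% (9.14 to 18.6, of 217 UMIs) against 15.5% and 15.8%, and Col6a1 at 13.9% and 12.4% against 12.8% and 14.2%. The macrophage interval left out the fibroblast value in 3 of 18 cases: Col1a2 in mouse 1, at 17.7% (13.5 to 22.5) against 24.4%, Col3a1 in mouse 1, at 28.2% (23.2 to 33.7) against 21.3%, and Col6a3 in mouse 2. Pcolce gave 5.58 and 4.93 UMIs per Col1a1 UMI in macrophages, against 2.59 and 1.99 in fibroblasts. The part of free RNA in the values of macrophages and endothelial cells was not tested.

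**Figure D3:**
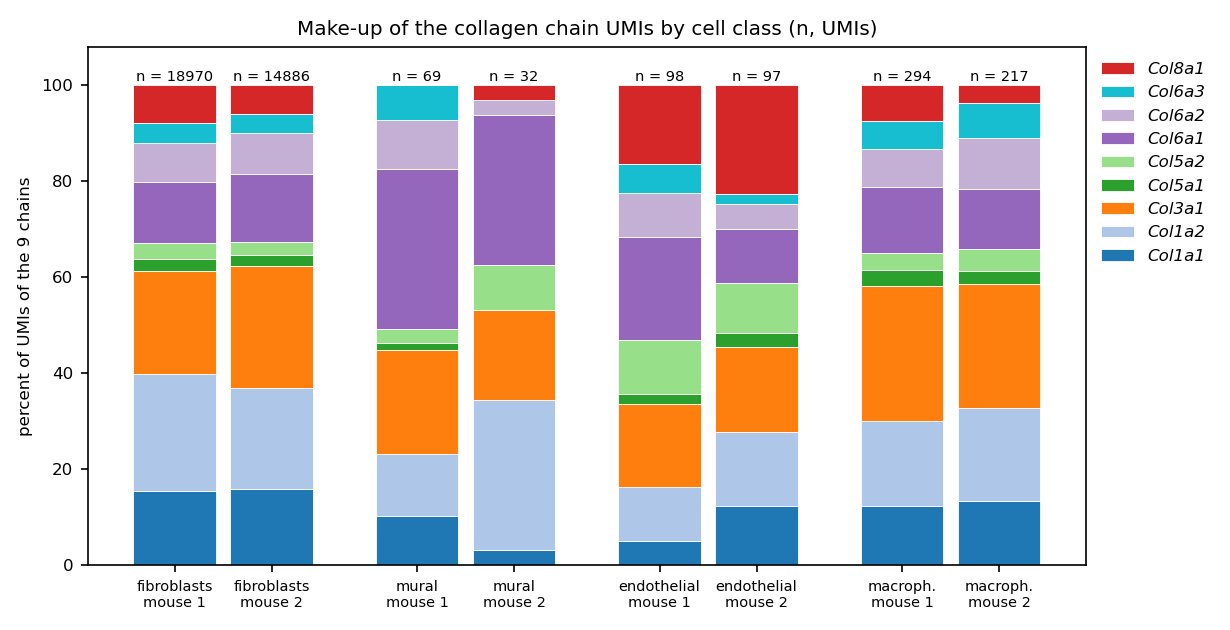
Share of each chain (y axis, percent) among the UMIs of the 9 chains in 4 classes of each mouse (x axis); n is the number of chain UMIs. Col6a1 takes 33.3% and 31.2% of the mural bars and Col8a1 16.3% and 22.7% of the endothelial bars, while in the fibroblast bars Col6a1 takes 12.8% and 14.2% and Col8a1 7.93% and 6.05%.

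Endocardial cells, 80 in all with 146458 UMIs, held only 21 chain UMIs, 17 of them in mouse 1. Their label held against markers outside the rule, since 5 endocardial markers summed to 3971 and 3347 CPM, against 169.6 and 135 CPM in other endothelial cells. Fibroblast markers, without Pdgfra, which was at 0, summed to 797 and 564 CPM against 341 and 328 CPM. Lum alone among these markers was at 470 and 249 CPM, against 22.4 and 21.6 CPM in other endothelial cells, and carried most of that difference. The part of fibroblast RNA in the values below was not tested. Col5a2 was read 6 and 1 times, or 85.4 and 13.1 CPM, and was the only one of the 10 genes called higher than in other endothelial cells, by a log2 fold change of 3.17 ± 0.81 (edgeR adjusted p = 0.0046; 2.49% of all genes called higher). In mouse 2 alone the CPM differed by 1.50 on the log2 scale and in mouse 1 alone by 4.69, so mouse 1 carried most of the difference. Col6a1 was read 5 and 1 times and, with Col5a2, was 1 of 2 genes called higher than in macrophages (8.62% of all genes). The Col6a1 call ended when the fibroblast rule was lowered to 3 UMIs of Dcn (log2 1.72, edgeR adjusted p = 0.27). That lower rule also cut the endocardial cells from 40 and 40 to 33 and 28. The cells lost held at least 3 Dcn UMIs, below the main fibroblast threshold. Their part in the endocardial chain UMIs was not tested. Col1a2 was read 3 and 2 times, while Col1a1, Col5a1, Col6a3 and Col8a1 were not read, where a count of 0 allows up to 20.5 CPM over the group.

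Against other fibroblasts, those under the Pi16 and matrix thresholds, endocardial cells were therefore far lower in the unread chains. Other fibroblasts were at least 31.0-fold higher in Col1a1, 4.28-fold in Col5a1, 9.24-fold in Col6a3 and 12.0-fold in Col8a1, each against a floor of 3 counts over the endocardial group. The comparison called all 10 genes higher in other fibroblasts (6.71% of all genes), but the fitted values of chains read 0 to 3 times depend on the prior count and are not given. Col5a2 was the closest, higher in other fibroblasts by a log2 fold change of 1.69 ± 0.49 (edgeR adjusted p = 0.0092), a call lost with DESeq2 (adjusted p = 0.18), with the median-of-ratios scaling in edgeR (0.095) and with scaling to total UMIs (0.10). Mural cells were called higher than endocardial cells in 4 of the 10 genes (2.70% of all genes): Col1a1, Col3a1, Pcolce and Col6a1, which differed by a log2 fold change of 2.43 ± 0.59. By UMI counts over total UMIs, mural cells were at least 2.67-fold higher in Col1a1 (8 UMIs against a floor of 3 counts over the endocardial group), and the ratio was 21.1 for Col3a1 (95% exact counting interval 3.39 to 871) and 13.4 for Pcolce (4.26 to 67.6). The Col6a1 call ended with cells counted in each class they met (log2 0.96, adjusted p = 0.20). Other endothelial cells were higher than macrophages in Col8a1 alone, by 2.10 ± 0.38 (edgeR adjusted p = 1.2e-06; 16.6% of all genes). Scaling to total UMIs moved the all-gene median by 0.37 in endocardial over other endothelial cells, by 0.78 in endocardial cells over macrophages, by -0.41 in other fibroblasts over endocardial cells and by 0.42 in other endothelial cells over macrophages. With that scaling, higher genes were 62.8% instead of 39.3% of calls in endocardial over other endothelial cells, 71.7% instead of 41.8% over macrophages and 36.5% instead of 56.0% in other fibroblasts over endocardial cells. Median-of-ratios scaling gave 59.9%, 59.6% and 37.3% in these comparisons, and total UMIs gave 66.9% instead of 50.3% in other endothelial cells over macrophages.

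Fibroblasts split by Pi16, a gene of fibroblasts around larger vessels in several tissues, were compared with the other fibroblasts. None of the 10 genes was called between Pi16 fibroblasts and other fibroblasts in edgeR or in DESeq2, where 0.76% of all genes were called higher and 0.769% lower; 1 of 10 had an unadjusted p below 0.05. Fitted log2 fold changes ran between -0.49 ± 0.17 for Col6a3 (edgeR adjusted p = 0.15) and 0.26 ± 0.18 for Col5a1 (0.86). The 9 chains summed to 3399.7 and 4371 CPM in Pi16 fibroblasts and 3595 and 4567 CPM in other fibroblasts, and Pcolce stood at 1480.0 and 1567 CPM against 1352 and 1280 CPM. The groups overlapped for the summed chains. Pcolce did not overlap but was not called, with a log2 fold change of 0.22 ± 0.16 (edgeR adjusted p = 0.89). In Pi16 fibroblasts 4 adventitial markers summed to 475 and 447 CPM, against 107 and 91.5 CPM in other fibroblasts, but this list reached 4844 and 3395 CPM in endothelial cells, so the subset is named by its rule. Other fibroblasts also held 629.9 and 2.97 CPM of 4 neutrophil markers, against 101 and 3.20 CPM in Pi16 fibroblasts, and 82.4 and 55.9 CPM of 4 epicardial markers, against 1.59 and 2.56 CPM. Their part in the values was not tested.

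Another subset had at least 4 UMIs of the matrix genes Cilp, Postn and Thbs4 together. Only 4 and 1 of these cells fell under the Pi16 threshold, too few for the planned class: its fit gave Col3a1 a log2 fold change of -1.68 ± 0.39 and Pcolce -1.38 ± 0.32 over other fibroblasts (edgeR adjusted p = 0.0054 and 0.0051; 1.96% of all genes called lower), a median over all genes of -5.54, and no called member with scaling to total UMIs. Of all its calls, 3.06% were higher genes, against 80.0% with total UMIs and 25% with median-of-ratios scaling. The subset was therefore taken with the cells that also met the Pi16 rule, 34 and 13 cells, a choice made after seeing the data. These matrix-rule fibroblasts held 8072 and 6672 CPM of the 9 chains, above both other subsets in both mice. The chain level showed no step at the threshold itself. Just inside it, 10 and 7 cells with 4 or 5 UMIs of the rule genes held 5103 and 5133 CPM. Just outside it, 32 and 14 cells with 2 or 3 held 5038 and 6147 CPM. The matrix-rule fibroblasts were also deeper. Those that met both rules had a median of 3729.5 and 4027 UMIs per cell, against 2419.5 and 2254.5 in other fibroblasts. The 5 smooth muscle markers summed to 52.8 and 307 CPM in the matrix-rule cells, against 12.0 and 6.54 CPM in other fibroblasts. Myh11, Cnn1 and Mylk were at 0 in the matrix-rule cells. In mouse 2 all of these marker UMIs were in the 1 cell under the Pi16 threshold, at 3116 CPM. The part of depth or of these markers in the values was not tested.

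Col8a1 showed the largest difference. It stood at 1070.3 and 1013 CPM in matrix-rule fibroblasts, against 287 and 256 CPM in Pi16 fibroblasts and 229 and 264 CPM in other fibroblasts. The matrix-rule values did not overlap those of either other subset, while Pi16 and other fibroblasts overlapped. The log2 fold change was 1.75 ± 0.20 over other fibroblasts (edgeR adjusted p = 2e-09, with 0.709% of all genes called higher). Over Pi16 fibroblasts it was 1.61 ± 0.20 (edgeR adjusted p = 5.7e-08, with 0.225%). Col5a2 was the second of 2 genes called in each comparison, at 339 and 217 CPM against 114 and 117 CPM in other fibroblasts, with a log2 fold change of 1.07 ± 0.27 (adjusted p = 0.013). Single cells weighed on it: the highest cell of each mouse held 206 of 1071 and 83 of 369 chain UMIs, and without these 2 cells Col5a2 was no longer called (log2 0.67, adjusted p = 0.42 over other fibroblasts), whereas Col8a1 stayed at 1.82. Without the replicate block the Col5a2 call was lost too (edgeR adjusted p = 0.17 over other and 0.36 over Pi16 fibroblasts), and over Pi16 fibroblasts it also fell under the fold threshold with no filter on low counts (log2 0.99). Col3a1 was at 2457 and 1682 CPM against 768 and 1175 CPM in other fibroblasts, a log2 fold change of 0.85 ± 0.20 (adjusted p = 0.0069) that was under the fold threshold. It was called at 1.13, 1.17 and 1.07 with median-of-ratios scaling, total UMIs and the fibroblast subsets fitted alone, but the highest cells held 91 and 29 of its UMIs, and without them it had 0.55 (adjusted p = 0.21). Without the replicate block it had 0.80 (adjusted p = 0.27), and DESeq2 gave 1.06 (0.25). Col1a1 was at 1281 and 1103 CPM in matrix-rule fibroblasts, against 563 and 721 CPM in other fibroblasts, a log2 fold change of 0.62 ± 0.19 (edgeR adjusted p = 0.073). Col1a2 was at 1734 and 1248 CPM against 883 and 995 CPM (0.39 ± 0.18, adjusted p = 0.38), and Col5a1 at 158 and 163 CPM against 90.9 and 83.8 CPM (0.58 ± 0.32, 0.49). None of these 3 chains was called. Collagen VI and Pcolce were not called either: Col6a1 was at 528 and 579 CPM against 457 and 634 CPM in other fibroblasts, with a log2 fold change of -0.28 ± 0.22 (adjusted p = 0.68), and Pcolce had -0.07 ± 0.18 (1.0). Within the chain UMIs of matrix-rule fibroblasts, Col8a1 took 13.3% and 15.2%, against 6.38% and 5.78% in other fibroblasts, and Col6a1 took 6.54% and 8.67%, against 12.7% and 13.9%. Relative to the trimmed-mean scaling, total UMIs moved the all-gene median by 0.30 over other and 0.31 over Pi16 fibroblasts and made higher genes 57.3% instead of 32.4% of calls over other fibroblasts and 58.3% instead of 26.5% over Pi16 fibroblasts; median-of-ratios scaling gave 56.0% and 54.4%.

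**Figure D4:**
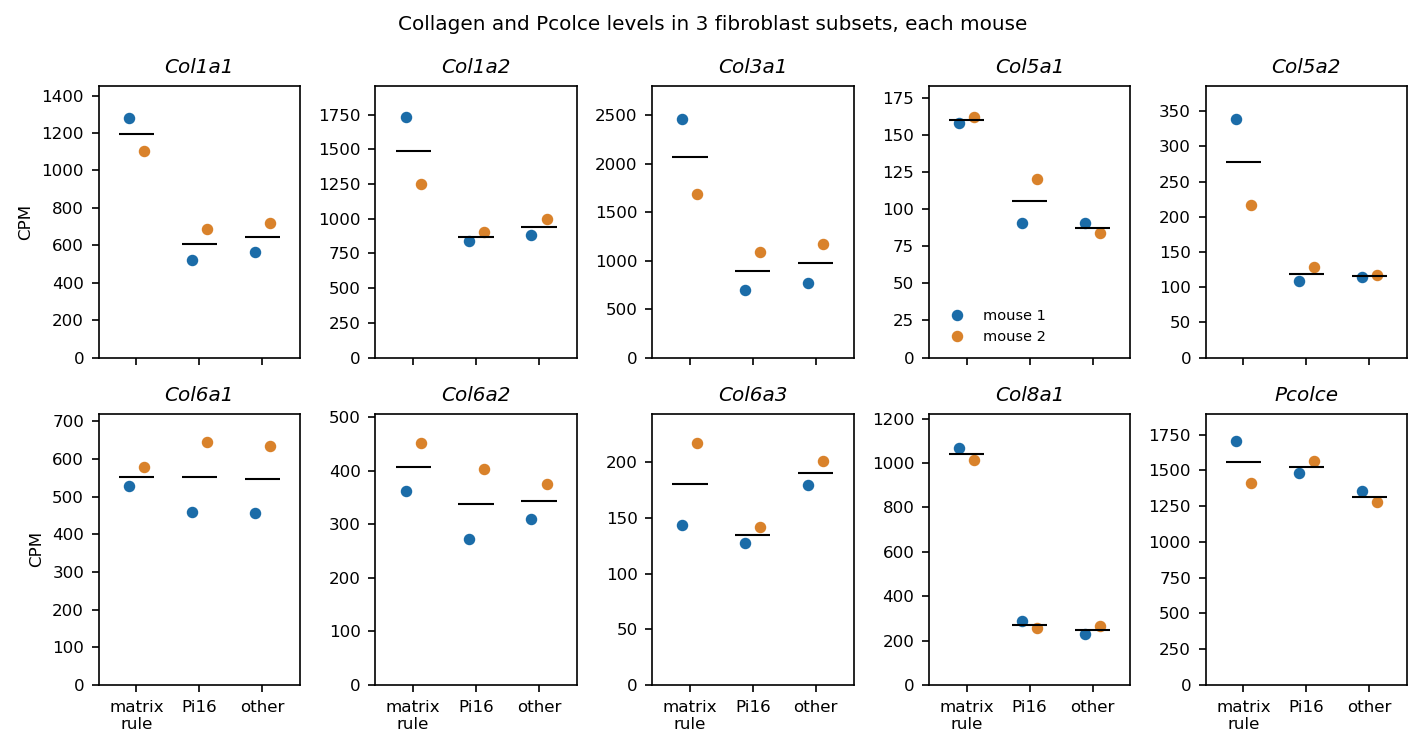
Level of each gene in CPM (linear axis starting at 0) in matrix-rule, Pi16 and other fibroblasts; dots are the 2 mice and lines their mean. Col8a1 stands at 1070.3 and 1013 CPM in the 47 matrix-rule fibroblasts and at most at 287 CPM in the other subsets, while the Col6a1 dots overlap.

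Chain UMIs were spread over nearly all fibroblasts. After thinning to 1000 UMIs, the median fibroblast held 3 chain UMIs in mouse 1 and 4 in mouse 2, with quartiles of 2 to 5 and 3 to 6 and a highest cell of 53 and 21. The 10% of cells with the most held 25.3% and 22.8% of all chain UMIs. Among thinned fibroblasts with a Col1a1 UMI, 61.2% and 61.5% held a Col1a2 UMI, against 53.4% and 58.1% of those without. For Col3a1 these shares were 49.6% and 69.3% with a Col1a1 UMI, against 42.9% and 59.5% without. Among cells that met no other class rule, few lay near the fibroblast threshold. There, 17 and 8 cells just inside it, with 5 or 6 Dcn UMIs, held 4143 and 4473 CPM of the 9 chains. The 11 and 1 cells just outside, with 3 or 4, held 1149 and 3652 CPM. Cells of other classes also held 3 or 4 Dcn UMIs. With a rule of 3 Dcn UMIs, endothelial cells fell from 929 and 1269 to 917 and 1250. Macrophages fell from 2997 and 2361 to 2967 and 2352.

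Among the 10 genes, the 2 mice differed most in Col3a1, Col6a1 and Col6a2. With 1 library per mouse there is no test, and intervals cover counting error only. In fibroblasts, the mouse 1 to mouse 2 ratio of CPM was 0.673 for Col3a1 (95% exact counting interval 0.643 to 0.703), 0.722 for Col6a1 (0.680 to 0.765), 0.740 for Col6a2 (0.687 to 0.798) and 0.780 for Col1a1 (0.739 to 0.824), while the third collagen VI chain, Col6a3, was at 0.851 (0.763 to 0.950). Col8a1 was at 1.04 (0.961 to 1.14) and Pcolce at 1.01 (0.977 to 1.05), both with intervals that include equality. Over 5894 genes with at least 100 fibroblast UMIs in a mouse, the log2 ratio had a median of -0.03 and ran between -0.58 and 0.64 at the 5% and 95% points, so the -0.57 of Col3a1 lay near the lower end. Measured over the genes of each subset in the same way, the 5% and 95% points were -0.54 and 0.70 in Pi16 fibroblasts and -0.63 and 0.74 in other fibroblasts, against -0.64 and -0.61 for Col3a1. The order held within subsets for Col3a1, at 0.642 in Pi16 fibroblasts and 0.653 in other fibroblasts, while Col8a1 was at 1.12 in Pi16 fibroblasts and 0.869 in other fibroblasts. Neutrophil markers in fibroblasts differed between the mice too, at 300.4 CPM in mouse 1 and 3.03 CPM in mouse 2, and their part in the ratios was not tested.

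**Figure D5:**
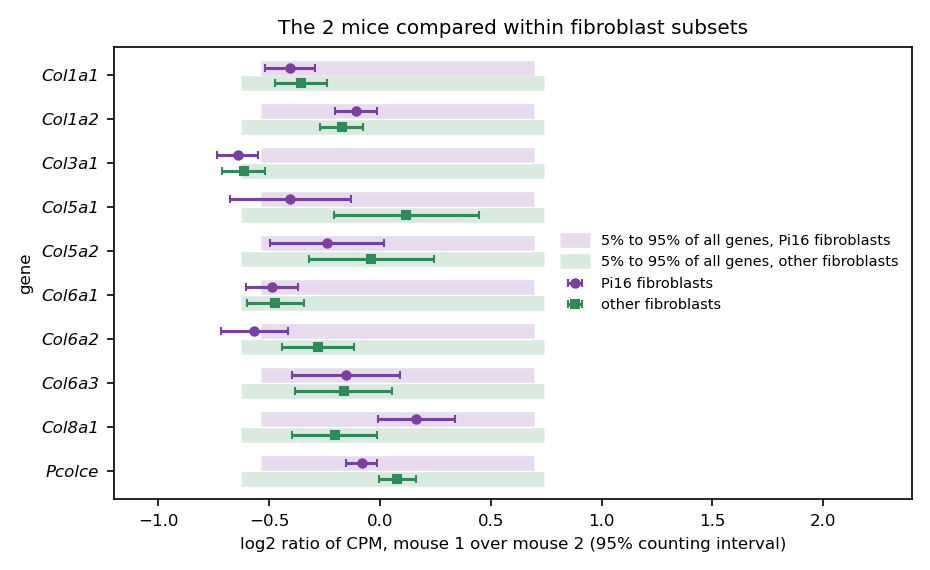
Log2 ratio of CPM in mouse 1 over mouse 2 (x axis) for each gene (y axis) in Pi16 and other fibroblasts, with 95% counting intervals; pale bars span the 5% and 95% points of all genes in the same subset, -0.54 to 0.70 in Pi16 and -0.63 to 0.74 in other fibroblasts. Col3a1, at -0.64 and -0.61, lies just left of its bar in Pi16 fibroblasts and just inside it in other fibroblasts, and Pcolce lies near 0.

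Genes that act on collagen followed unevenly in fibroblasts over endothelial cells, where 14.4% of all genes were called lower beside the 16.4% called higher. Of 23 tested genes for folding, hydroxylation and export, 12 were called higher and 1 lower, with a median log2 fold change of 1.02 against 0.03 over all genes. They included the collagen chaperone Serpinh1, at 2175 and 1672 CPM in fibroblasts against 1135 and 846 CPM in endothelial cells (1.02 ± 0.14), and P4hb, the disulphide isomerase shared with prolyl 4-hydroxylase (1.34 ± 0.15). P3h3 and P3h4, of a complex that modifies lysines of collagen, were higher by 3.89 ± 0.21 and 3.40 ± 0.24.

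Of 9 genes for propeptide trimming and cross-linking, 8 were called higher and 1 lower, with a median of 4.58. Pcolce2, the paralog of Pcolce, was at 442 and 432 CPM in fibroblasts against 3.15 and 2.48 CPM in endothelial cells (7.33 ± 0.25), and the cross-linking oxidase Loxl1 was at 455 and 475 CPM against 7.57 and 7.43 CPM (6.00 ± 0.24). The amino-propeptide protease Adamts2 was higher by 5.38 ± 0.25 and the carboxyl-propeptide protease Bmp1 by 2.89 ± 0.23. All 11 tested genes of other fibrillar collagens and fibril-binding proteins were called higher, with a median of 5.32, among them the proteoglycans Bgn (4.25 ± 0.16), Lum (5.62 ± 0.18) and Ogn (6.61 ± 0.23) and the dermatopontin gene Dpt (6.78 ± 0.21). Of 11 non-fibrillar collagens, 7 were higher and 1 lower, with a median of 3.40, among them Col15a1 (3.40 ± 0.21), Col4a4 (3.61 ± 0.32) and Col14a1 (5.36 ± 0.46). Col6a6, a further collagen VI chain, was at 21.2 and 36.7 CPM in fibroblasts, with 2 UMIs in endothelial cells.

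Of 14 collagen receptors and uptake genes, 9 were higher and 1 lower, with a median of 3.73. The gelatinase Mmp2 was higher by 6.05 ± 0.21, the membrane collagenase Mmp14 by 4.12 ± 0.26, the collagen receptor kinase Ddr2 by 3.74 ± 0.27 and the uptake receptor Mrc2 by 5.93 ± 0.42. Of 20 regulators of collagen genes, 3 were higher and 5 lower, with a median of 0.04. The fibroblast transcription factor Tcf21 was higher by 6.42 ± 0.28 and Cebpb by 2.82 ± 0.18, whereas the flow-responsive Klf2 had -1.69 ± 0.13 and the co-activator Wwtr1 -1.30 ± 0.17. Cebpb differed between the mice, at 424 and 136 CPM in fibroblasts against 54.2 and 24.3 CPM in endothelial cells.

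Within endothelial cells and fibroblasts, some of these listed genes were called too. In endocardial over other endothelial cells 7 of the 88 tested were called higher and 6 lower, where 2.49% and 3.86% of all genes were. In matrix-rule over other fibroblasts 4 of 89 were called higher and 3 lower, where 0.709% and 1.48% of all genes were, and over Pi16 fibroblasts 1 of 89, Aspn, was called, higher in matrix-rule fibroblasts (0.225% of all genes). In Pi16 over other fibroblasts 2 of 88 were called higher and 1 lower, where 0.76% and 0.769% of all genes were. Aspn, a proteoglycan that binds collagen I, was at 1304 and 1121 CPM in matrix-rule fibroblasts, against 332 and 470.2 CPM in Pi16 fibroblasts and 138 and 197 CPM in other fibroblasts. It was higher in matrix-rule than in other fibroblasts by a log2 fold change of 2.59 ± 0.21 (edgeR adjusted p = 3.6e-14) and in Pi16 than in other fibroblasts by 1.27 ± 0.18 (5e-08). The fibril-associated collagen Col14a1 was at 173 and 72.3 CPM in matrix-rule fibroblasts, 82.9 and 66.5 CPM in Pi16 fibroblasts and 27.5 and 27.3 CPM in other fibroblasts. It was higher than in other fibroblasts by 2.07 ± 0.43 in the matrix-rule subset (adjusted p = 0.0012) and by 1.48 ± 0.23 in the Pi16 subset (9.2e-07), was not called between those 2 subsets, and its values overlapped there. The cross-linking oxidase Loxl2 was higher in matrix-rule than in other fibroblasts by 1.27 ± 0.34 (0.022). In endocardial over other endothelial cells, Bgn was higher by 3.21 ± 0.25 and Lum by 3.63 ± 0.34, and the basement membrane chain Col4a2 differed by -3.20 ± 0.43, at 56.9 and 26.2 CPM in endocardial cells against 298 and 274 CPM in other endothelial cells.

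Across the 14 sums of 7 classes and 2 mice, the genes most like the 9 summed chains among the 4486 that reached 100 CPM in at least 1 sum were Serping1, the C1 inhibitor (Pearson r = 0.979 of log2 CPM plus 10), Islr (0.971), Mmp2 (0.970), the laminin chain Lamc1 (0.969) and Serpine2 (0.962). For Col8a1 the nearest was Fibin (0.988); the next 2 reached 100 CPM in 1 sum each, of the 5-cell matrix class, and are not given. Over the 12 sums without a matrix class, a choice made after seeing the data, the genes most like Col8a1 were Tnxb (0.997), Medag (0.992) and the fibroblast marker Pdgfra (0.991). The sums share libraries and class depths, and these values describe the pattern only. Among the 5 for the summed chains, Mmp2, Serping1 and Islr remained with the 47-cell matrix-rule class in place of the planned one, and Serping1 and Mmp2 without a matrix class.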

How the data were processed

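The authors deposited raw UMI counts per gene symbol and barcode for each of 2 libraries, with no normalization; Cell Ranger 2.2.0, FastQC and the build mm10 are named in the submitters' processing notes. How barcodes were selected is not given in the sources used here. A cell needed 500 UMIs and 300 genes or more and no more than 10% mitochondrial UMIs, by which 719 and 432 barcodes were dropped; Scrublet in scanpy 1.11.5 then marked 405 and 248 doublets, leaving 6608 and 5687 cells. Sums of each class in each mouse were fitted with edgeR 4.0.16 under R 4.3.3, with TMM scaling by trimmed means. Low genes were removed with filterByExpr, and quasi-likelihood F tests were used. The mouse entered as a replicate block, since the same 2 animals gave all classes. One fit held 4 classes (3 residual degrees of freedom) and another 7 subclasses (6), so the spread was mostly estimated across genes, and p-values cover 2 animals. SE was derived from the F statistic. DESeq2 1.42.0 was an alternative, and the tests were tested on simulated data. Intervals are exact Clopper-Pearson intervals and, like the floor of 3 counts, cover counting error only. The 10 genes, the classes and the gene lists were chosen with earlier results of these data known. Named list genes were the 4 called genes of each list with the highest fibroblast CPM in fibroblasts over endothelial cells and, within a class, up to 3 called list genes with the largest change and 50 CPM or more in each mouse where they were higher; those of the 5-cell class held 1 UMI each and are not given. Gene positions came from GENCODE M21 and promoters from RefSeq; promoters of Col1a1 and Col5a2 were not used here.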

Additional observations from a re-analysis of the deposited data

How the results depend on the processing

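Counts of members called in fibroblasts over endothelial cells, macrophages and mural cells stayed at 10 under each of the alternatives run, and at 0 between Pi16 and other fibroblasts. No direction of a called member with more than 3 UMIs in each group was reversed in the settings run. The planned 5-cell class was left out of that check. There, Col3a1 and Pcolce were called lower, but in mouse 2 both were at 1283 CPM, against 1175 and 1280 CPM in other fibroblasts. Members called in endothelial cells over macrophages numbered 4 with scaling to total UMIs and 7 with cells counted in each class they met, against 2. In other endothelial cells over macrophages they numbered 2 with DESeq2, 2 with median-of-ratios scaling, 3 with total UMIs, 6 with cells counted in each class and 2 with no fold floor, against 1. The main fits called 16.8% and 16.6% of all genes higher in these comparisons. With cells counted in each class, endothelial cells included 43 and 59 cells that also met the fibroblast rule. The part of these cells in the counts was not tested. In endocardial over other endothelial cells the members called were 3 with DESeq2, 3 with cells counted in each class, 2 with doubled thresholds and 2 with the endothelial subsets alone, against 1, and in endocardial cells over macrophages 1 with Dcn of at least 3, against 2. For matrix-rule over other fibroblasts they were 1 without the highest cells and 1 with no replicate block, against 2, and over Pi16 fibroblasts 1 without the highest cells, 4 with median-of-ratios scaling, 4 with total UMIs, 1 with no filter and 1 with no replicate block, against 2. The planned class of 5 matrix-rule cells gave 2 members, but 0 with DESeq2, 0 with median-of-ratios scaling, 0 with total UMIs, 4 with no filter, 1 with no replicate block and 0 with the fibroblast subsets alone; the cause was not tested.

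Over all genes, calls without a fold floor were 6794 (fibroblasts over macrophages, against 4412), 5846 (endothelial cells over macrophages, against 3889), 5620 (other endothelial cells over macrophages, against 3743) and 267 (Pi16 over other fibroblasts, against 173). DESeq2 gave 59 for Pi16 over other fibroblasts, 154 for matrix-rule over other fibroblasts (against 253), 53 over Pi16 fibroblasts (against 98) and 37 for the 5 cells (against 229). With no replicate block, that is without pairing classes by animal, calls were 49, 83, 18 and 106 in the same comparisons, and 463 in endocardial over other endothelial cells (against 718); outside the 5-cell class and among genes with more than 3 UMIs in each group, leaving out the block ended no member call other than those of Col6a3 (mural over endothelial cells) and Col5a2 (matrix-rule fibroblasts, adjusted p = 0.17 over other and 0.36 over Pi16 fibroblasts). The 5 cells gave 40 with median-of-ratios scaling, 25 with total UMIs, 362 with no filter and 96 with the subsets alone, and mural over endothelial cells gave 358 with cells counted in each class (against 1383). A single mouse allows no test. Precision was limited by 101 chain UMIs in mural cells, 21 in endocardial cells and the 47 matrix-rule fibroblasts.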
